A study of Mus musculus with 12 samples.

Results

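The matrix glycoprotein and proteoglycan genes are a list of 47 mouse genes, chosen by name, among 25514 genes counted in cultured kidney proximal tubule (PT) cells. They code for fibronectin and matricellular proteins (9 genes), elastic fibre and microfibril proteins (13), small leucine-rich proteoglycans (6), large and basement membrane proteoglycans (4), cell surface proteoglycans (7), and basement membrane and adaptor glycoproteins (8). The list was chosen with earlier results of these data known, so its shares set beside those of all genes are descriptions only. Of the 47 genes, 37 passed the filter on low counts and were tested, and a gene can pass that filter through a single group in which it is high. The PT cells were conditionally immortalized lines from male mice that carried the temperature-sensitive immortalizing transgene (labelled H2ts6) and floxed Tgfbr2, the gene of the type II TGF-β receptor (TβRII). They were grown at 33 °C with interferon gamma and moved to 37 °C 5 days before the experiment. By the methods, interferon gamma was removed at this move. The TβRII flox/flox PT cells (genotype H2ts6;Tgfbr2fl/fl) kept the receptor gene, and the TβRII-/- PT cells (genotype H2ts6;Tgfbr2-/-) had lost it after adenoviral Cre in culture. Each genotype was sequenced as 3 libraries in normal culture medium (untreated) and 3 libraries after 24 h of H2O2 in serum-free medium, 12 libraries in all. The normal medium held 2.5% fetal bovine serum. The labels give the H2O2 dose as 200 mM and the methods give 200 μM. The change of medium and H2O2 cannot be told apart, nor can loss of TβRII and any other difference between the lines, and the labels do not say whether the 3 libraries of a group came from separate cultures, so p-values measure the spread between these libraries, which may be technical.

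Matrix glycoproteins such as fibronectin, the fibrillins and the nidogens form the fibrils and sheets to which tubular cells attach, and matricellular proteins such as thrombospondins, tenascins and periostin bind to them and modulate adhesion. Proteoglycans are core proteins that carry glycosaminoglycan chains, either in the matrix (versican, perlecan, agrin) or on the cell surface (glypicans, syndecans), where the chains bind growth factors. TGF-β is a known inducer of many of these genes in the kidney, and several of their products, among them fibrillin-1, decorin and thrombospondin-1, bind or activate TGF-β.

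The gene counts, 1 transcript standing for each gene, summed to between 15870155 and 20857618 per library. Counts of Tgfbr2 were 9248, 8369 and 7562 after normalization in untreated TβRII flox/flox and 6782, 6675 and 6358 in untreated TβRII-/- PT cells. With H2O2 the means of Tgfbr2 were 13633 in TβRII flox/flox and 7216 in TβRII-/- PT cells. These are counts over a whole transcript, which includes exons that remain after Cre, so they do not check the deletion. By the methods, the authors checked it with immunoblotting and RNA sequencing. The cell lines were checked against marker lists. Of 10 epithelial markers, 9 were called higher in untreated TβRII-/- PT cells, beside 16.3% of all genes tested. A call needed an edgeR adjusted p under 0.05 and a fold change of at least 1.5. The epithelial markers had a summed normalized count of 12841 to 14708 in the untreated TβRII flox/flox libraries and 33470 to 36116 in the untreated TβRII-/- libraries. The defining markers Cdh1 and Epcam had means of 1.80 and 0.371 in untreated TβRII flox/flox and 1111 and 664 in untreated TβRII-/- PT cells. Among 17 proximal tubule markers, Lrp2 was present in both genotypes with means of 17279.8 and 11016, and Slc34a1 and Hnf4a had means of at most 0.671 in any group. The 16 fibroblast and mesenchymal markers summed to 61015 to 70205 and 23006 to 24793 in the untreated TβRII flox/flox and TβRII-/- libraries, with Pdgfra and Thy1 at means of at most 2.97 in any group. This fall of the sum was not shared by the whole list. Only 8 of its genes were tested, and 3 were lower and 3 higher in untreated TβRII-/- PT cells, beside 11.8% and 16.3% of all genes tested. The middle value of their untreated genotype differences was 0.08 on the log2 scale. The part of these marker differences in the results was not tested, and in bulk RNA fewer cells of a type and less RNA per cell cannot be told apart.

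Promoters of members that fell or rose in the TβRII-/- PT cells are shown because TGF-β signals through Smad proteins, which bind DNA at the letters CAGAC. The search covered the 250 bases before each RefSeq start of build GRCm38.p6 on both strands, and 31 of the 47 genes matched the promoter table, with 41 promoters. The letters CAGAC, or GTCTG on the other strand, stood in 36.59% of the members' promoters and in 42.19% of all 32851 promoters. TGANTCA, the AP-1 letters, stood in 7.32% and 6.75%, and GGAATG, the TEAD letters, in 14.63% and 12.64%. Each motif was searched separately, whatever its overlap with another, and a match describes the sequence only. The promoters printed were picked because they hold CAGAC. The first pair belongs to genes that were lower in the TβRII-/- PT cells, Postn (chr3:54359017-54359266, plus strand) and Tnc (chr4:64046937-64047186, minus strand). The second pair belongs to genes that were higher, Tgfbi (chr13:56609336-56609585, plus strand) and Fbln1 (chr15:85205699-85205948, plus strand). Capitals mark CAGAC or GTCTG.
Postn: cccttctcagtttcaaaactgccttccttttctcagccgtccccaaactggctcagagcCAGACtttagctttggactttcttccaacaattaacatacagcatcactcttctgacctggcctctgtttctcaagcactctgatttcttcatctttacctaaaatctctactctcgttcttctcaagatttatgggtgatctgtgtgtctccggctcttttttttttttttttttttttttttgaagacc
Tnc: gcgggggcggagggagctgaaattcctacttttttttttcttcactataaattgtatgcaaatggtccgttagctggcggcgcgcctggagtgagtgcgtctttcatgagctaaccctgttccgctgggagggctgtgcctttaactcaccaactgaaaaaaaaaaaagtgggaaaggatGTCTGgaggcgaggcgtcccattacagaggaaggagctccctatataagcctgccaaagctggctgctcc
Tgfbi: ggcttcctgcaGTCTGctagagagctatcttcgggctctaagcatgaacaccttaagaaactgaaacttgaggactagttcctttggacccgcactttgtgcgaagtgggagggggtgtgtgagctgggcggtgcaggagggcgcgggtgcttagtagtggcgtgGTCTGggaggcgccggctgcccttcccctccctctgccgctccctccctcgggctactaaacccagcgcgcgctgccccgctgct
Fbln1: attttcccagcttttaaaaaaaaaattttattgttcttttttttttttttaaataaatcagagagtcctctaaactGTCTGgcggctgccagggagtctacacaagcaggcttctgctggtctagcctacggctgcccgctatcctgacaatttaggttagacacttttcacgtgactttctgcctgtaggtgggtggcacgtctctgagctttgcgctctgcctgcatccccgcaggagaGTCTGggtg
The letters stood 1 time in the promoters of Postn and Tnc and 2 times in those of Tgfbi and Fbln1. Postn and Tnc each have another RefSeq start, and the letters did not stand in the 250 bases before it. Fbln1 also has another RefSeq start, and the overlapping 250 bases before that start held the letters 2 times, at the same sites.

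The first comparison asked how the matrix genes differed between TβRII flox/flox and TβRII-/- PT cells in normal culture medium. A gene was called when edgeR's quasi-likelihood test gave a Benjamini-Hochberg adjusted p under 0.05 over all 12971 genes tested and the fold change was at least 1.5. Of the 37 tested members, 28 were called: 21 were lower and 7 were higher in TβRII-/- PT cells. Over all genes tested, 28.0% were called, 11.8% lower and 16.3% higher. When each library had to hold at least 10 counts of a gene, which leaves 27 members, 18 were lower and 3 were higher, beside 1201 lower and 1475 higher of 11473 genes tested. The median log2 fold change of the tested members was -1.02, beside 0.01 for all genes tested. Together the 47 genes took 1.79% to 2.24% of the counts of an untreated TβRII flox/flox library and 0.887% to 0.977% of an untreated TβRII-/- library. Fn1 alone held 27.3% to 29.9% of the members' counts in the untreated TβRII flox/flox libraries and 5.85% to 5.96% in the untreated TβRII-/- libraries. The highest share among the untreated TβRII flox/flox libraries was that of replicate 1.

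**Figure D1:**
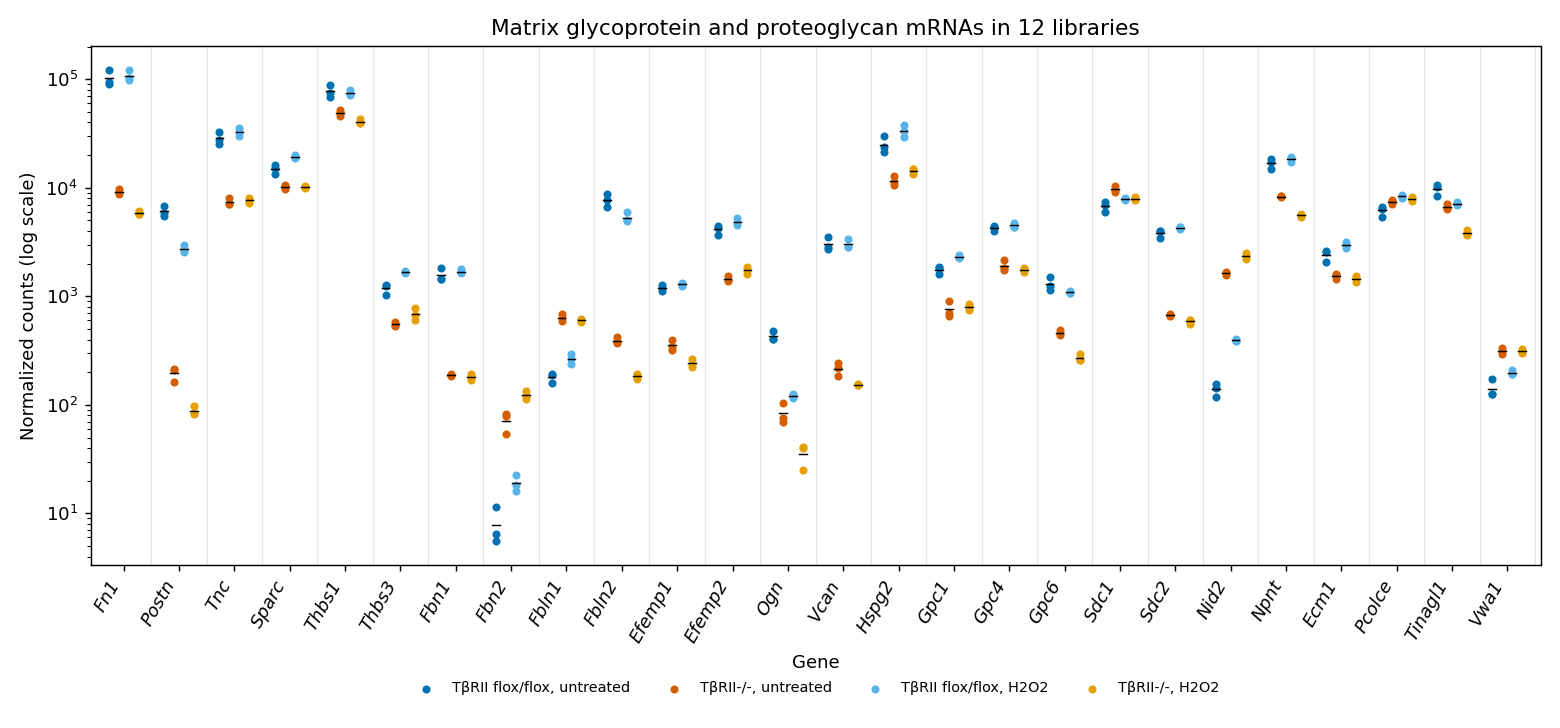
Normalized counts (log axis) of the 26 matrix genes called in at least 1 comparison with a group mean of at least 100, with 1 point per library and a bar at the mean of the 3 libraries of a group. Fn1, Postn, Fbn1, Fbln2, Vcan and Sdc2 lie lower in both TβRII-/- groups, and Fbn2, Fbln1, Nid2 and Vwa1 lie higher in both.

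Of fibronectin and the matricellular proteins, Fn1, Postn and Tnc were lowest in TβRII-/- relative to TβRII flox/flox PT cells. Values in each sentence are those of replicates 1, 2 and 3, and where 2 sets are separated by the word against, TβRII flox/flox comes before TβRII-/-. Fn1 (chr1:71585473-71653280 in GRCm38.p6), the adhesive glycoprotein that cells assemble into fibrils through integrins, had normalized counts of 122877, 94822 and 91292 in untreated TβRII flox/flox and 9684, 8793 and 9079.7 in untreated TβRII-/- PT cells. With H2O2 its counts were 101717, 120871 and 98611 in TβRII flox/flox and 5761, 5738 and 6119.7 in TβRII-/- PT cells. The TβRII-/- libraries were all below the TβRII flox/flox libraries in both media, 11.2-fold lower untreated (log2 -3.49, SE 0.10, n = 3 and 3, edgeR adjusted p = 1.83e-24) and 18.2-fold lower with H2O2. Per kilobase of transcript, Fn1 had the second highest level of the members in untreated TβRII flox/flox PT cells (12247 normalized counts per kilobase) and the ninth in untreated TβRII-/- PT cells (1092). Postn (chr3:54359267-54391041) codes for periostin, a fasciclin-domain protein that binds collagen and fibronectin, and had counts of 6864, 5908 and 5529.8 in untreated TβRII flox/flox and 211, 215 and 164 in untreated TβRII-/- PT cells. With H2O2 it stood at 2562, 2982 and 2685 against 84.9, 82.6 and 97.5. Its 4 groups did not overlap, and it showed the largest fall of any member in the untreated comparison, 31.1-fold (log2 -4.96, SE 0.09, edgeR adjusted p = 5.11e-29). Tnc, tenascin-C, which counters adhesion during tissue remodelling, had counts of 32918, 27813 and 25176 against 7966, 7131 and 7096 untreated, and 32896, 35217 and 30096 against 7579, 7307 and 8071 with H2O2, in TβRII flox/flox and TβRII-/- PT cells. The genotypes were separate in both media, and the log2 fold changes were -1.95 (SE 0.08) and -2.10 (SE 0.08).

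The thrombospondins and Sparc differed less. Thbs1 codes for thrombospondin-1, which can activate latent TGF-β, and had the highest level per kilobase of all members in both untreated groups (12434 and 7893 normalized counts per kilobase). Its counts were 88886, 74736 and 68891 in untreated TβRII flox/flox and 52127, 46309.5 and 49151 in untreated TβRII-/- PT cells, and 73257, 78868 and 71488 against 39839, 39194 and 42678 with H2O2. The genotypes did not overlap in either medium, and the log2 fold change was -0.66 (SE 0.08) untreated and -0.88 (SE 0.08) with H2O2. Without replicate 1 of the untreated TβRII flox/flox PT cells the untreated value was -0.55, under the fold limit. Thbs3, a pentameric thrombospondin, had counts of 1269, 1246 and 1039 against 578, 534 and 539 untreated and 1672, 1698 and 1634 against 668, 610.1 and 781 with H2O2, with log2 fold changes of -1.11 and -1.29. The TβRII-/- libraries were the lower ones in both media. Sparc, a collagen-binding glycoprotein that loosens adhesion, had counts of 16067, 15361 and 13338 against 10660.3, 10335 and 9809 untreated, and 18876, 19938 and 19049 against 9905, 10064 and 10272 with H2O2. Its genotype difference missed the fold limit untreated (log2 -0.54, edgeR adjusted p = 2.34e-08) and was called with H2O2 (-0.94). Tgfbi, a fasciclin-domain protein like periostin and named for its induction by TGF-β, went the other way at low counts, with means of 3.91 ± 2.99 (SD, n = 3) in untreated TβRII flox/flox and 41.4 ± 6.42 in untreated TβRII-/- PT cells (log2 3.35, SE 0.38). With H2O2 its means were 4.25 ± 1.03 against 62.2 ± 3.70, and the TβRII-/- libraries were the higher ones in both media. Sparcl1 and Thbs2 had 0 counts in all 12 libraries, where a count of 0 allows up to 3 counts in a library.

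Of the 13 elastic fibre and microfibril genes, 10 were tested, and in each medium 6 were lower and 3 were higher in TβRII-/- PT cells. Over all genes tested 11.8% were lower and 16.3% higher untreated, and 13.4% and 17.3% with H2O2. The higher genes were Fbn2, Fbln1 and Mgp. Fbn2 and Mgp of these, and Fbln5 and Mfap2 of the lower genes, had fewer than 10 counts in a library. The 2 fibrillins, which form the microfibrils that hold latent TGF-β complexes, differed in opposite directions. Fbn1 (chr2:125300594-125506485) had counts of 1818, 1456 and 1430.3 in untreated TβRII flox/flox and 183, 188 and 191 in untreated TβRII-/- PT cells, and 1673, 1772 and 1625 against 193, 169 and 185 with H2O2. Fbn2 had counts of 11.6, 5.56 and 6.45 against 53.3, 82.3 and 78.5 untreated, and 18.3, 22.7 and 16 against 122, 113 and 133 with H2O2. Fbn1 was therefore 8.36-fold lower (log2 -3.06, SE 0.09, edgeR adjusted p = 2.57e-24) and Fbn2 8.93-fold higher (log2 3.16, SE 0.29, edgeR adjusted p = 2.85e-11) in untreated TβRII-/- PT cells, with no overlap between genotypes in either medium. Per kilobase, Fbn1 stayed above Fbn2 in untreated TβRII-/- PT cells, at 15.6 and 6.41 normalized counts per kilobase. Antisense exons of Gm9913 cover 20.34% of the exon bases of the Fbn1 transcript in GRCm39. The methods name a stranded mRNA library kit, but the strand setting of the counting is not given in the sources used here.

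The fibulins, calcium-binding glycoproteins of elastic fibres and basement membranes, also split. Fbln2 (chr6:91212460-91272540) had counts of 8745, 7729 and 6674 in untreated TβRII flox/flox and 418, 369 and 379 in untreated TβRII-/- PT cells, and 4896, 5959 and 5076 against 174, 182 and 193 with H2O2. The genotypes were far apart in both media, by a log2 fold change of -4.31 (SE 0.09) untreated and -4.86 (SE 0.10) with H2O2. Fbln1 had counts of 193, 189 and 160.2 against 684, 636 and 588 untreated, and 238, 263 and 293 against 618, 580.3 and 606 with H2O2, so the TβRII-/- libraries were the higher ones (log2 1.81, SE 0.09, and 1.18, SE 0.09). Fbln5, needed for elastic fibre assembly, was low, with means of 46.7 ± 2.0 against 5.35 ± 3.23 untreated (log2 -3.12, SE 0.36) and 45.7 ± 11 against 5.36 ± 0.687 with H2O2. Efemp1, fibulin-3, had counts of 1263, 1195 and 1123 against 339, 399 and 322 untreated, and 1257, 1325 and 1272 against 233, 224 and 267 with H2O2. Efemp2, fibulin-4, which recruits lysyl oxidase to elastic fibres, had counts of 4484, 4265 and 3655 against 1532, 1403 and 1385 untreated, and 4871, 5227 and 4541 against 1742, 1605 and 1858 with H2O2. Both were lower in every TβRII-/- library, by log2 fold changes of -1.76 and -1.52 untreated and -2.42 and -1.49 with H2O2.

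The remaining elastic fibre genes were near the limit of counting. Mfap2, a microfibril component, had means of 26.7 ± 5.15 in untreated TβRII flox/flox and 2.30 ± 0.501 in untreated TβRII-/- PT cells, and 50.2 ± 5.13 against 1.73 ± 0.689 with H2O2. Over the 3 libraries of a group these were 74 against 7 summed counts, a ratio of 10.8 (95% exact interval 4.99 to 27.8) untreated, and 142 against 6 summed counts, a ratio of 25.4 (95% exact interval 11.4 to 70.3) with H2O2, where ratios are scaled by library totals and the intervals cover counting error only. Mgp, matrix Gla protein, an inhibitor of calcification, had at most 1 count in an untreated TβRII flox/flox library and a mean of 3.96 ± 0.193 in untreated TβRII-/- PT cells. The TβRII-/- PT cells were called higher, with 12 against 1 summed counts, a ratio of 11.7 (95% exact interval 1.74 to 502). With H2O2 its means were 2.54 ± 2.33 against 11.3 ± 0.594. Its untreated call was lost without replicate 1 or replicate 2 of the untreated TβRII flox/flox PT cells (edgeR adjusted p = 0.0659 and 0.0583). Emilin1, a glycoprotein at the edge of elastic fibres, was tested but not called (log2 1.02, SE 0.61, untreated), with means between 4.35 and 10.6. Eln, the gene of elastin, and Mfap4 and Mfap5 did not pass the filter, with at most 11.2 normalized counts in any library.

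Of the 6 small leucine-rich proteoglycans, which bind collagen fibrils, 3 were tested. Ogn, osteoglycin, had counts of 476, 407 and 402 in untreated TβRII flox/flox and 75.3, 105 and 69.9 in untreated TβRII-/- PT cells, and 115, 125 and 121 against 24.9, 40.1 and 40.8 with H2O2. It was lower in every TβRII-/- library of a medium (log2 -2.36, SE 0.13, and -1.76, SE 0.18) and lower with H2O2 in both genotypes. Exons of Cenpp on the other strand cover 22.32% of the Ogn exon bases. Cenpp itself had means of 87.8 and 98.5 untreated and 61.5 and 53.6 with H2O2, in TβRII flox/flox and TβRII-/- PT cells. It was thus also lower with H2O2 (log2 -0.52 and -0.89), and its part in the Ogn counts was not tested. Fmod, fibromodulin, had means of 10.8 ± 1.62 against 2.28 ± 2.22 untreated and 26.9 ± 8.57 against 5.52 ± 2.97 with H2O2, with log2 fold changes of -2.17 (SE 0.62) and -2.31 (SE 0.42). Dcn, decorin, which binds TGF-β, had at most 3 counts in an untreated TβRII flox/flox library and a mean of 5.51 ± 2.99 in untreated TβRII-/- PT cells. The TβRII-/- PT cells were called higher, with 17 against 4 summed counts, a ratio of 4.16 (95% exact interval 1.36 to 17). That call was lost with DESeq2 (adjusted p = 0.0551), without the filter on low counts, with counts summed over transcripts and without each of 4 single libraries. With H2O2 its means were 2.86 ± 1.64 against 16.6 ± 3.19, with the TβRII-/- libraries the higher ones (log2 2.50, SE 0.55). Bgn did not pass the filter, and Lum and Aspn had 0 counts in all libraries.

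Among the large proteoglycans, Vcan (chr13:89655309-89743027), versican, a chondroitin sulfate proteoglycan that binds hyaluronan, had counts of 3555, 2749.7 and 2863 in untreated TβRII flox/flox and 243, 219 and 185 in untreated TβRII-/- PT cells, and 2843, 3339.6 and 2834 against 155, 153 and 153 with H2O2. It was 14.2-fold lower untreated (log2 -3.83, SE 0.10, edgeR adjusted p = 7.32e-26) and 19.6-fold lower with H2O2, with no overlap. The basement membrane proteoglycans differed far less. Hspg2, perlecan, had counts of 29953, 23615 and 21146 against 12866, 10579 and 11309 untreated, and 33179, 37698 and 29654 against 14858, 13306 and 14944 with H2O2, with log2 fold changes of -1.10 and -1.22. The lowest TβRII flox/flox library remained above the highest TβRII-/- library in each medium. Agrn, agrin, a heparan sulfate proteoglycan of the tubular basement membrane, had means of 25120.4 ± 3574 against 19397 ± 1276 untreated and 27490 ± 2208 against 19879.7 ± 932 with H2O2, and its log2 fold changes of -0.37 and -0.47 were under the fold limit. Acan, aggrecan, had 0 counts in all libraries.

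The cell surface proteoglycans are the glypicans, which are anchored by a lipid, and the syndecans, which span the membrane. All 7 were tested, and Gpc1, Gpc4, Gpc6 and Sdc2 were lower in TβRII-/- PT cells in each medium. Sdc2, syndecan-2, had counts of 4022, 4017 and 3449 in untreated TβRII flox/flox and 667, 688 and 655 in untreated TβRII-/- PT cells, and 4130.2, 4363 and 4308 against 560.3, 604 and 609.6 with H2O2. It was 5.71-fold lower untreated (log2 -2.51, SE 0.07) and 7.21-fold lower with H2O2. Sdc1, syndecan-1, the main syndecan of epithelia, had counts of 6920.2, 7384 and 5962 against 10282, 9623 and 9224 untreated, and 7706, 8016 and 7824 against 7769.5, 7802 and 8209 with H2O2. The TβRII-/- libraries were the higher ones untreated, by a log2 fold change of 0.52 that missed the fold limit, and the genotypes overlapped with H2O2 (0.01). Sdc4, syndecan-4, a coreceptor of focal adhesions, had means of 5554 ± 429 against 5217 ± 275 untreated and was not called (log2 -0.09, SE 0.06), and with H2O2 its means were 6723 ± 217 against 5569 ± 269 (log2 -0.27, SE 0.06, under the fold limit). Per kilobase, the order of the syndecans in untreated TβRII flox/flox PT cells was Sdc1 (2107 normalized counts per kilobase), Sdc4 (2016) and Sdc2 (1036).

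Of the glypicans, Gpc1 had counts of 1845, 1837 and 1608 in untreated TβRII flox/flox and 904, 709 and 662 in untreated TβRII-/- PT cells, and 2295, 2385 and 2232 against 754, 811 and 846 with H2O2. Gpc4 had counts of 4463, 4383 and 3956 against 2149, 1808 and 1753 untreated, and 4369.6, 4726 and 4396 against 1819, 1659.8 and 1777 with H2O2. Gpc6 had counts of 1509, 1145 and 1256 against 439, 487 and 457 untreated, and 1074, 1109 and 1072 against 259, 256 and 293 with H2O2. In all 3 glypicans the TβRII-/- libraries lay below the TβRII flox/flox libraries in both media, by log2 fold changes of -1.22, -1.17 and -1.50 untreated and -1.52, -1.36 and -2.01 with H2O2. Exons of Ankmy1 on the other strand cover 19.93% of the Gpc1 exon bases, but Ankmy1 had at most 6 counts in a library. Gpc3, mutated in an overgrowth syndrome, had a mean of at most 9.35 in any group and was not called.

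Of the basement membrane and adaptor glycoproteins, Nid2 and Vwa1 were higher in TβRII-/- PT cells in both media. Nid2 (chr14:19751257-19811787), nidogen-2, which bridges laminin and collagen IV networks, had counts of 155, 119 and 142 in untreated TβRII flox/flox and 1681, 1632 and 1579 in untreated TβRII-/- PT cells, and 387, 387 and 402 against 2331, 2227 and 2491 with H2O2. It was 11.7-fold higher untreated (log2 3.55, SE 0.08, edgeR adjusted p = 6.63e-27) and 5.99-fold higher with H2O2, and the 4 groups did not overlap. Exons of Rtraf on the other strand cover 14.59% of the Nid2 exon bases, and Rtraf had means of 1258 and 1504 untreated. Its sister gene Nid1 did not pass the filter, with at most 3.87 normalized counts in any library. Npnt, nephronectin, the ligand of an integrin needed for kidney development, had counts of 18270.4, 17348 and 15043 against 8358, 8383 and 8185 untreated, and 18899.9, 19244 and 17429 against 5353, 5670.4 and 5741 with H2O2. It was lower in TβRII-/- PT cells by a log2 fold change of -1.02 (SE 0.07) untreated and -1.73 (SE 0.07) with H2O2. Vwa1, a von Willebrand factor A domain protein that binds perlecan, had counts of 125, 171 and 125 against 337, 294 and 310.2 untreated, and 194, 191 and 207 against 301, 328 and 312 with H2O2, higher in TβRII-/- PT cells by 1.16 and 0.67 on the log2 scale.

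Ecm1, which binds perlecan and other basement membrane proteins, had counts of 2584, 2615 and 2065 in untreated TβRII flox/flox and 1601, 1562 and 1429 in untreated TβRII-/- PT cells, and 2985, 3159.8 and 2786 against 1525, 1342 and 1484 with H2O2, with log2 fold changes of -0.66 and -1.04. Antisense exons of Gm65204 cover 10.76% of its exon bases. Tinagl1, a relative of the tubulointerstitial nephritis antigen, had counts of 10553, 10123 and 8358 against 7074, 6509 and 6333 untreated, and 7059, 7412 and 6931 against 3775, 3649.8 and 4071 with H2O2. Both genes were lower in every TβRII-/- library of a medium, and Tinagl1 missed the fold limit untreated (-0.54) and passed it with H2O2 (-0.90). Pcolce, an enhancer of procollagen processing, had counts of 6718, 6422 and 5389 against 7677, 7594 and 7136 untreated, and 8281, 8591 and 8063 against 8041, 7546 and 8295 with H2O2. The genotypes lay close together, at 0.27 and -0.06 on the log2 scale, and neither difference was called. Matn2, matrilin-2, a filament-forming adaptor, had means of 23 ± 2.08 against 14.3 ± 6.68 untreated and 32 ± 4.92 against 14.9 ± 1.67 with H2O2, and was called lower with H2O2 (-1.10, SE 0.31).

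The comparison of genotypes was repeated by the design in H2O2, on 6 other libraries of the same cell lines. Any other difference between the lines is therefore repeated with the genotype. With H2O2, 31 members were called, 24 lower and 7 higher in TβRII-/- PT cells, where 30.7% of all genes tested were called, 13.4% lower and 17.3% higher. Among the 27 members with 10 counts or more in each library, 20 were lower and 3 were higher, beside 1390 lower and 1595 higher of 11473 genes. The median log2 fold change of the tested members was -1.22, beside 0.02 over all genes tested. The same 21 genes were lower and the same 7 were higher in both media. Of the higher genes Tgfbi, Fbn2, Mgp and Dcn, and of the lower genes Fbln5, Mfap2 and Fmod, had fewer than 10 counts in a library. The untreated calls of Mgp and Dcn were lost under some alternatives. Sparc, Matn2 and Tinagl1 passed both limits in H2O2 and not in the untreated cells. The difference between media itself passed its test in Sparc and Tinagl1 and missed it in Matn2 (edgeR adjusted p = 0.644). The members took 1.97% to 2.26% of the counts in TβRII flox/flox and 0.828% to 0.896% in TβRII-/- libraries with H2O2. The share of Fn1 in the members' counts was 4.12% to 4.23% in the TβRII-/- libraries with H2O2.

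**Figure D2:**
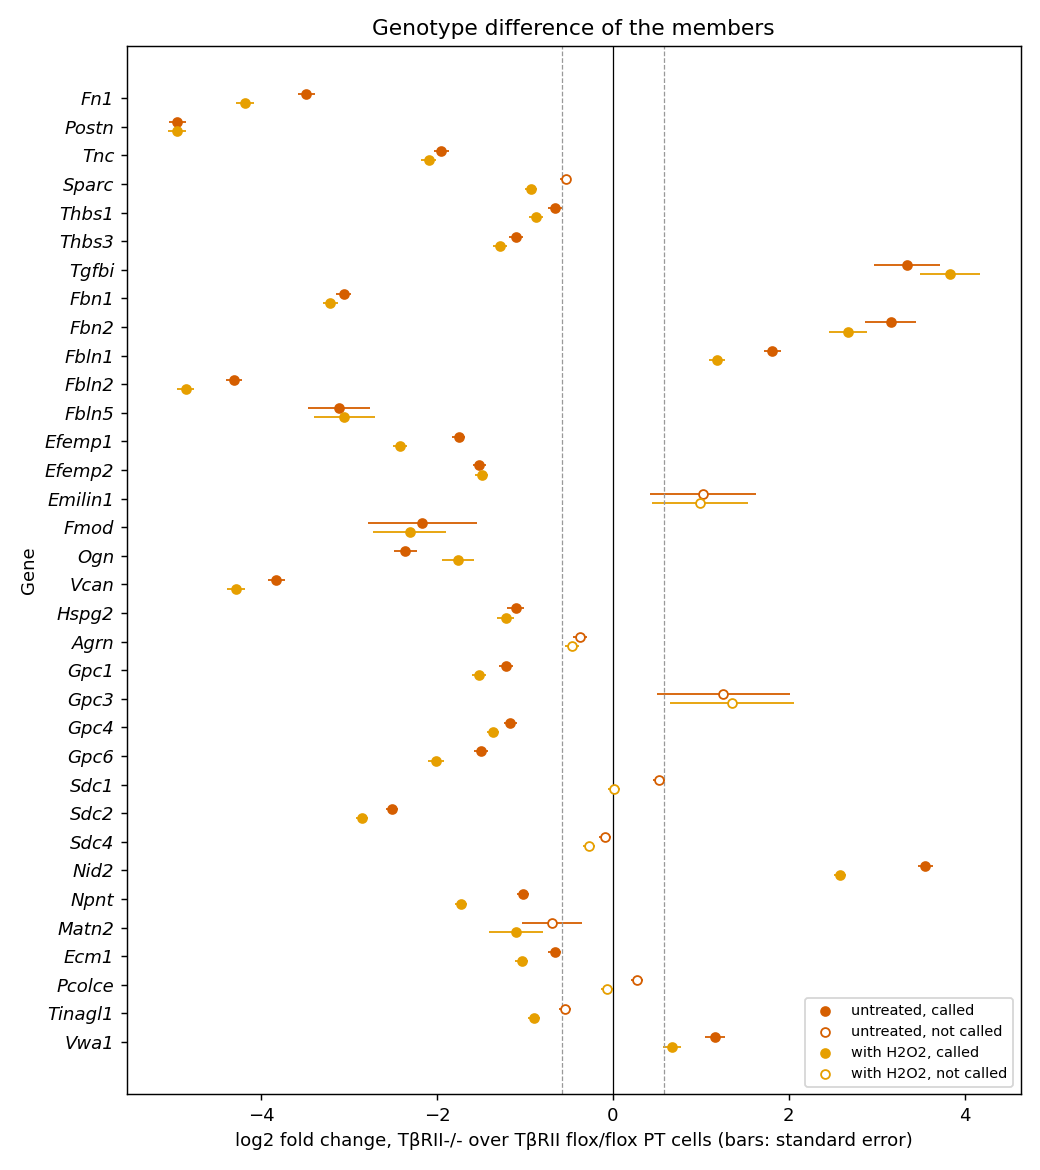
log2 fold changes (TβRII-/- over TβRII flox/flox PT cells) of 34 tested matrix genes untreated and with H2O2, with standard errors. Filled points were called, dashed lines mark a fold of 1.5, and Mfap2, Mgp and Dcn are left out because every library of a group had at most 3 counts. Most genes lie left of 0 in both media, from Postn at -4.96, and Tgfbi, Fbn2 and Nid2 lie furthest to the right.

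The next comparisons asked what H2O2 in serum-free medium did to the matrix genes in each genotype. They share libraries with both genotype comparisons. In TβRII flox/flox PT cells 6 members were called, where 8.24% of all genes tested were called, 5.68% higher and 2.56% lower. Fbn2 (log2 1.26), Mfap2 (0.91), Fmod (1.32) and Nid2 (1.496) rose and Postn (-1.15) and Ogn (-1.83) fell. In TβRII-/- PT cells 9 members were called, beside 8.33% of all genes tested, 4.56% higher and 3.76% lower. Fbn2 (0.77), Mgp (1.49) and Dcn (1.55) rose. Fn1 (-0.65), Postn (-1.16), Fbln2 (-1.09), Ogn (-1.23), Gpc6 (-0.78) and Tinagl1 (-0.79) fell. Postn, Ogn and Fbn2 were thus called in the same direction in both genotypes. Other members were called in 1 genotype and changed the same way in the other, at an adjusted p under 0.05 but under the fold limit. These were Nid2 (0.53 in TβRII-/- PT cells) and Fbln2 (-0.54), Tinagl1 (-0.44) and Gpc6 (-0.26) in TβRII flox/flox PT cells. Postn fell from a mean of 6101 ± 688 to 2743 ± 216 in TβRII flox/flox and from 197 ± 28.6 to 88.3 ± 8.01 in TβRII-/- PT cells. The calls of Mgp and Dcn rest on means of at most 16.6 counts, and the call of Dcn was lost without replicate 1 of the untreated TβRII-/- PT cells (edgeR adjusted p = 0.0551). The call of Mgp was lost without single TβRII-/- libraries, with DESeq2 (adjusted p = 0.0807), without the filter on low counts (edgeR adjusted p = 0.0581) and with summed transcripts (edgeR adjusted p = 0.0688). Without the fold limit 21 members were called in TβRII flox/flox and 20 in TβRII-/- PT cells, where 41.6% and 39.6% of all genes tested were called.

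Whether H2O2 acted differently in the 2 genotypes was tested by the difference between the H2O2 effects, called at an adjusted p under 0.05 with no fold limit. Of the 37 tested members, 15 were called, each with a more negative H2O2 effect in TβRII-/- than in TβRII flox/flox PT cells. Over all genes tested 10.2% were called, 6.28% in this direction and 3.90% in the other. Of the tested members 31 had a difference below 0, beside 47.25% of all genes tested. The largest were Nid2 (-0.97, SE 0.11), Npnt (-0.71, SE 0.10), Fn1 (-0.70, SE 0.13), Efemp1 (-0.66, SE 0.11) and Fbln1 (-0.63, SE 0.13), on the log2 scale. These genes took different paths. Nid2 was higher with H2O2 in both genotypes, by 1.496 in TβRII flox/flox and 0.53 in TβRII-/- PT cells, the second under the fold limit. Fn1 and Npnt stood at 0.06 and 0.13 in TβRII flox/flox and at -0.65 and -0.57 in TβRII-/- PT cells. Fbln1 stood at 0.55 and -0.08. Among the roles, 6 of the 7 tested basement membrane and adaptor glycoproteins were called. The calls of Vcan, Sdc2, Ecm1, Pcolce, Tinagl1 and Vwa1 were lost without at least 1 single library, and the other 9 were kept under every alternative run.

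**Figure D3:**
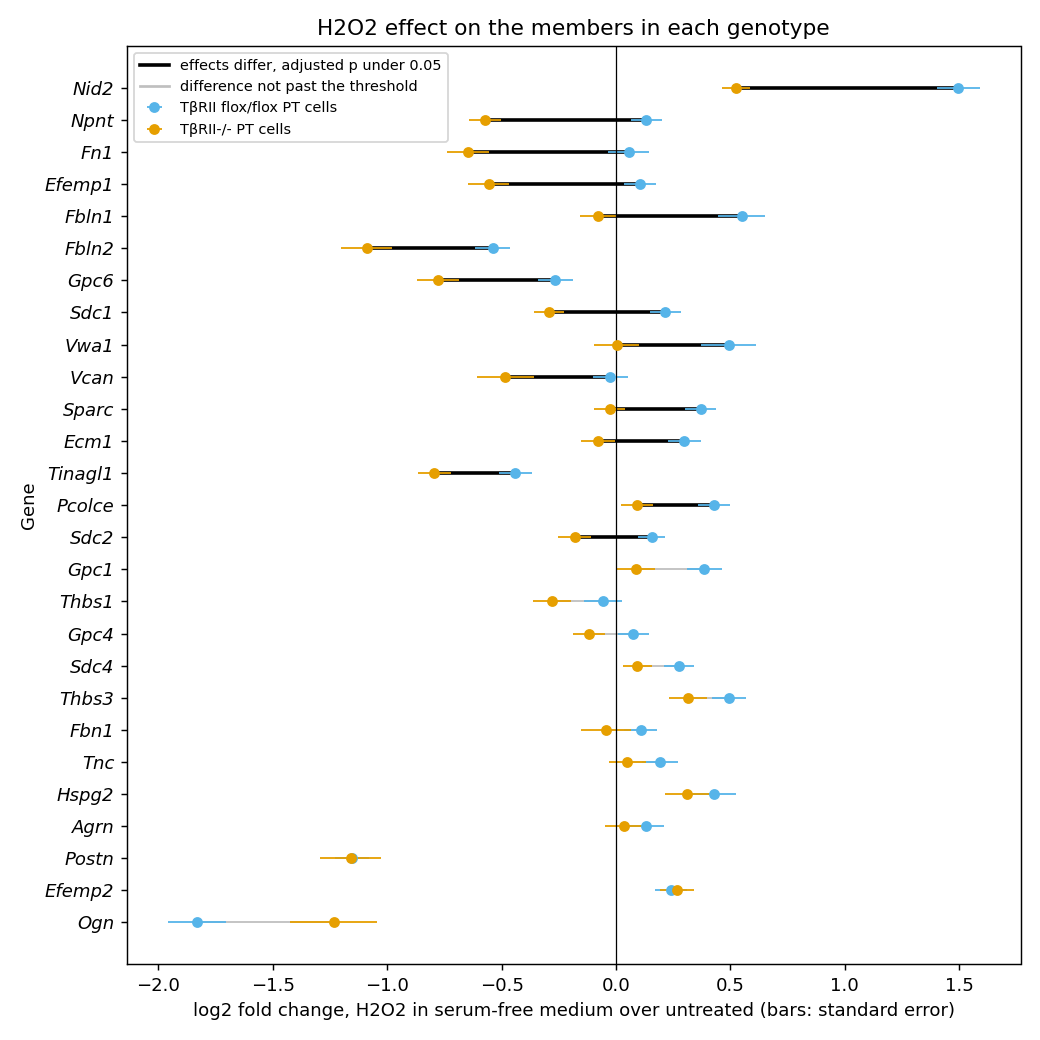
log2 fold changes of H2O2 in serum-free medium over untreated, with standard errors, for the 27 matrix genes counted 10 times or more in each library, in TβRII flox/flox and TβRII-/- PT cells, ordered by the difference between the genotypes. Black lines join the 15 genes whose effects differed at an adjusted p under 0.05, and in each of them the point of the TβRII-/- PT cells lies to the left.

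Neighbouring gene lists were counted in the same fits to place the members. These lists, like the members, were chosen with earlier results of these data known, so their shares are descriptions only. Of 24 tested genes among 56 other matrix glycoproteins and proteoglycans, 8 were lower and 8 higher in untreated TβRII-/- PT cells, and 11 and 7 with H2O2. Lower calls were 33.3% of this list untreated and 45.8% with H2O2, beside 11.8% and 13.4% of all genes tested. Higher calls were 33.3% and 29.2%, beside 16.3% and 17.3%. The largest falls on the log2 scale were those of Omd, another small leucine-rich proteoglycan (means of 22.2 against 1.95), Spon2 (-2.51) and Fstl1 (-2.47), and the largest rises those of Thsd4 (4.37), which promotes microfibril assembly, Papln (3.03) and Tnxb, a tenascin with a mean of 0.358 in untreated TβRII flox/flox and 23 in untreated TβRII-/- PT cells. Of 43 tested enzymes that build or edit glycosaminoglycan chains, 15 were lower and 10 higher untreated, and 21 and 7 with H2O2. Lower calls were 34.9% and 48.8% of these enzymes, and higher calls 23.3% and 16.3%. Ust (-2.91), which sulfates uronic acid, Dse (-1.63), which makes dermatan sulfate, and Papss2 (-1.51), which makes the sulfate donor, fell, and Hpse (3.53), the heparanase, Hs3st3b1 (means of 2.50 against 18.9) and Chst7 (1.80), both sulfotransferases, rose. Among 7 tested hyaluronan genes Cemip (-3.18), which degrades hyaluronan, fell and Tnfaip6 (2.32), which binds it, rose.

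Over all genes tested 11.8% were lower and 16.3% higher untreated, and 13.4% and 17.3% with H2O2. Of 18 tested TGF-β target genes, a list chosen with earlier results of these data known, 13 were lower and 1 was higher in untreated TβRII-/- PT cells, and 14 and 2 with H2O2. Lox (-6.68), which crosslinks collagen and elastin, and Nox4 (-4.71), an oxidase, were among those that fell, and Acta2 (2.41), smooth muscle actin, rose. Of the tested markers, proximal tubule markers had 6 of 9 lower, led by Slc5a2 (a mean of 14.8 against 0 counts in each TβRII-/- library), Ggt1 (-3.30) and Cubn (-1.24). The 8 tested fibroblast and mesenchymal markers had 3 lower, Cdh11 (-3.50), Pdgfrb (-2.74) and Cdh2 (-1.98), and 3 higher, Twist2 (1.14), Foxd1 (1.0002) and Twist1 (0.87). Of 3 tested endothelial markers 1 was lower and 2 were higher, and of 4 tested leukocyte markers 1 was lower and 1 was higher. Endothelial markers summed to 376 to 416 in untreated TβRII flox/flox and 680 to 778 in untreated TβRII-/- libraries, and leukocyte markers to 1843 to 2133 and 1847 to 1918. The part of these marker genes in the matrix results was not tested.

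**Figure D4:**
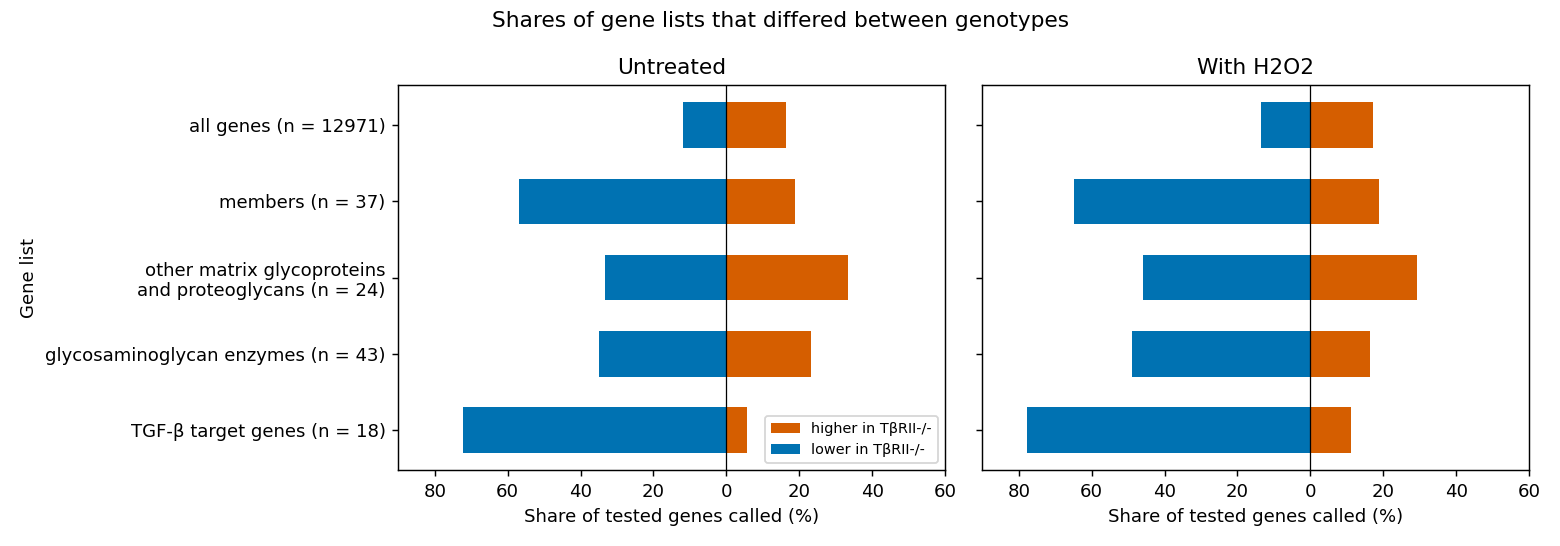
Share of the tested genes of each list called higher (right of 0) or lower (left of 0) in TβRII-/- than in TβRII flox/flox PT cells, untreated and with H2O2; n is the number of genes tested. Lower calls made up 56.8% of the tested members untreated and 64.9% with H2O2, against 11.8% and 13.4% of all genes. The other matrix genes were called in both directions, with lower calls at 33.3% and 45.8%. The members and the lists were chosen with earlier results of these data known.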

How the data were processed

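RNA was sequenced from 12 libraries of cultured mouse PT cells, grouped by the labels' genotype and treatment, with 3 per group. The authors trimmed reads with fastp, aligned them to GRCm38.p6 (GENCODE M23) by STAR, and used featureCounts for counting. The deposited values are raw counts per transcript without normalization, and a read shared by several transcripts of a gene can be counted on each. The tests were designed for gene counts, so each gene was represented by its transcript with the largest sum of counts over the 12 libraries. Of 106332 transcripts, 104820 matched GENCODE M39 by Ensembl identifier, which gave 25514 genes. Transcripts without a match, 1.22% to 1.28% of a library's counts, were not used.

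Counts were normalized by TMM and tested with edgeR 4.0.16 in R 4.3.3 (filterByExpr, glmQLFit, glmQLFTest) with 1 coefficient per group over all 12 libraries, with Benjamini-Hochberg adjustment over 12971 genes. Normalized counts are scaled to the mean effective library size of 17351835. The standard error is the log2 fold change divided by the square root of F. Per-library values are given for the 26 members called in at least 1 comparison with a group mean of at least 100, and from each list up to 3 called genes with the largest rise and fall are named, except 1 gene that is not reported here. The members and gene lists were chosen with earlier results of these data known. Alternatives were DESeq2 1.42.0 and its size factors, other filters and limits, fits to the compared groups only, summed transcripts, a replicate block and leaving out each library. Libraries of a group differed by more than counting noise, so none was treated as 1 library deposited again, which does not show that they came from separate cultures. Depth limits low genes, and limits of a count of 0 cover counting error only. Gene coordinates and promoters are RefSeq's for GRCm38.p6, and overlaps of exons were read from GENCODE M39 on GRCm39. The labels and the methods name different RNA extraction kits.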

Additional observations from a re-analysis of the deposited data

Results flagged for a closer look

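In 15 matrix genes the log2 effect of H2O2 in serum-free medium differed between TβRII flox/flox and TβRII-/- PT cells by edgeR's test of the interaction (adjusted p under 0.05, 3 libraries in each of the 4 groups). The values below are the effect in TβRII flox/flox PT cells, the effect in TβRII-/- PT cells and the difference. Among the fibronectin and matricellular genes they were Fn1 (0.06 and -0.65, difference -0.70) and Sparc (0.37 and -0.03, difference -0.40). The elastic fibre genes were Fbln1 (0.55 and -0.08, difference -0.63), Fbln2 (-0.54 and -1.09, difference -0.55) and Efemp1 (0.11 and -0.56, difference -0.66). The proteoglycans were Vcan (-0.02 and -0.48, difference -0.46), Gpc6 (-0.26 and -0.78, difference -0.51), Sdc1 (0.22 and -0.29, difference -0.51) and Sdc2 (0.16 and -0.18, difference -0.34). The basement membrane and adaptor genes were Nid2 (1.496 and 0.53, difference -0.97), Npnt (0.13 and -0.57, difference -0.71), Ecm1 (0.30 and -0.08, difference -0.38), Pcolce (0.43 and 0.09, difference -0.34), Tinagl1 (-0.44 and -0.79, difference -0.35) and Vwa1 (0.49 and 0.00, difference -0.49). The difference was below 0 in all 15. Groups of 3 libraries were too small for the test of single outlying libraries.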

How the results depend on the processing

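Of 89 calls of single members over the 5 comparisons, none reversed under any alternative and 11 fell short of the threshold under at least 1. These were Thbs1 (untreated genotype difference), Mgp and Dcn (untreated genotype difference and H2O2 effect in TβRII-/- PT cells) and the interactions of Vcan, Sdc2, Ecm1, Pcolce, Tinagl1 and Vwa1. Without 1 library the highest edgeR adjusted p of these interactions was 0.15 for Vcan and 0.0977 for Vwa1 (replicate 1 of untreated TβRII-/- PT cells left out), 0.0787 for Sdc2 (replicate 1 of TβRII-/- PT cells with H2O2), and 0.0772 for Ecm1, 0.086 for Pcolce and 0.0795 for Tinagl1 (replicate 2 of TβRII-/- PT cells with H2O2). The other 9 interactions, among them those of Fn1, Npnt and Nid2, were called under every alternative run. Requiring at least 10 counts in every library, which removes low members, gave 21 members for the genotype untreated (3 higher, 18 lower), 23 with H2O2 (3 higher, 20 lower), 3 for H2O2 in TβRII flox/flox PT cells (1 higher, 2 lower), 6 for H2O2 in TβRII-/- PT cells (each lower) and 15 for the interaction. Under that filter 2676, 2985, 845, 725 and 1333 of 11473 genes tested were called in these comparisons. Without the fold limit, 21 members were called for H2O2 in TβRII flox/flox and 20 in TβRII-/- PT cells, beside 41.6% and 39.6% of all genes tested. Leaving out each library in turn gave 25 to 29 members for the genotype untreated, 31 to 32 with H2O2, 6 to 8 and 7 to 11 for H2O2 in TβRII flox/flox and TβRII-/- PT cells, and 10 to 16 for the interaction. Over all genes tested the same fits called 3589 to 3751 for the genotype untreated and 3903 to 4086 with H2O2. They called 892 to 1176 and 1000 to 1093 for H2O2 in TβRII flox/flox and TβRII-/- PT cells, and 833 to 1680 for the interaction. DESeq2 gave 27, 31, 6, 8 and 15 members, beside 3582, 3904, 1007, 982 and 1326 of 12971 genes tested. Same-numbered libraries of different groups did not deviate together (correlations of -0.10 to 0.06), so the numbers are not taken to pair them. A replicate block gave 28, 31, 6, 10 and 15 members, beside 3623, 3969, 1047, 1069 and 1202 of 12971 genes tested. Counts summed over all transcripts gave 11 interactions, beside 962 of 13533 genes tested, where the main fit called 15 members and 1321 of 12971 genes. Counts set the limit in 10 tested members with fewer than 10 counts in a library, Tgfbi, Fbn2, Fbln5, Mfap2, Emilin1, Mgp, Dcn, Fmod, Gpc3 and Matn2.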
